A study of Mus musculus with 4 samples.

Results

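The receptor tyrosine kinases described here are 10 cell surface proteins that fibroblasts use, or could use, to read growth factors and matrix: Pdgfra, Pdgfrb, Fgfr1, Fgfr2, Fgfr3, Egfr, Igf1r, Insr, Met and Ddr2. They were chosen by name from the annotated genes, and every probe set annotated with exactly 1 of these symbols was taken. That gave 32 probe sets of the 45101 on the array, of which 29 were among the 27022 that passed a filter on dim signal. The cells were primary fibroblasts at passage 3, that is connective tissue cells taken into culture from mouse embryos without immortalisation. RBP2-/- cells, which lack the histone H3 lysine 4 demethylase encoded by Kdm5a, were represented by 2 independent lines, and wild-type cells also by 2, with 1 Affymetrix array for each line. The comparison asks which transcripts differ when this enzyme is absent. Strain, litter, sex, embryo age and the deleted part of Kdm5a are not given in the sources used here.

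A receptor of this class binds its ligand outside the cell and acts as a pair of receptor molecules. It phosphorylates tyrosines inside the cell, which recruit adaptors that can switch on the Ras-ERK, PI3K-AKT and phospholipase C pathways. PDGF is a classical serum mitogen of mesenchymal cells, and fibroblasts also respond to FGF, EGF and insulin-like growth factors. DDR2 differs from the rest in that its ligand is fibrillar collagen. A probe set reads a transcript through short oligonucleotides whose binding strength differs from probe set to probe set, so the level of a receptor can be followed across arrays but cannot be ranked against that of another receptor. Which of the 10 dominates in these fibroblasts therefore cannot be told from these values.

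RBP2 acts at promoters, and the DNA-binding ARID domain of the human protein is known to recognise the letters CCGCCC. RefSeq promoter windows of build GRCm38.p6 were listed for 7 of the 10 receptors, and the 250 bases before each start were searched for CCGCCC on both strands, that is also for GGGCGG, which overlaps the core letters of the GC box read by Sp1. The letters were found in 5 of 8 receptor windows, belonging to 4 receptors, and in 32.7% of all 32851 windows. Receptor windows with a match were 60.8% to 77.6% G or C, and those without were 37.6% to 54.4%. Base composition was not matched in this count, so it does not show enrichment of the letters at receptors. The Met window held 3 matches, the Fgfr3 windows held 3 in the more upstream and 2 in the other, and the Pdgfra window held 0. These windows are shown because single probe sets of Met and Fgfr3 have the highest log2 fold changes, 1.15 and 1.12, and Pdgfra the widest spread between arrays. On the probe set of highest mean signal of each gene, Fgfr3 had 1.12, Pdgfra 0.83 and Met 0.69. Igf1r and Egfr, whose windows also held matches, had 0.20 and -0.11 there. Whether matches go with fold changes was not tested. The Met window is chr6:17463707-17463956, the more upstream of the Fgfr3 windows is chr5:33721474-33721723, and the Pdgfra window is chr5:75152001-75152250, all on the plus strand and written 5′ to 3′ with the matched letters in capitals.
Met: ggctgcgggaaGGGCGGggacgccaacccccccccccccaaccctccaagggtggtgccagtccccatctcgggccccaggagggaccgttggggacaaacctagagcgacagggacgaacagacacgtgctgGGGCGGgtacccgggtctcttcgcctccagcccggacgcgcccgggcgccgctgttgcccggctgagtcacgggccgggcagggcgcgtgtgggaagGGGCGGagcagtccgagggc
Fgfr3: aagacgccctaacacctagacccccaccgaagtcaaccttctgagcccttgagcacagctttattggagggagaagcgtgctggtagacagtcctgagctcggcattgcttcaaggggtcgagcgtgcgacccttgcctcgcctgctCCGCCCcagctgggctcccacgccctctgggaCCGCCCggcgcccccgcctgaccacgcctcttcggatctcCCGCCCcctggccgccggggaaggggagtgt
Pdgfra: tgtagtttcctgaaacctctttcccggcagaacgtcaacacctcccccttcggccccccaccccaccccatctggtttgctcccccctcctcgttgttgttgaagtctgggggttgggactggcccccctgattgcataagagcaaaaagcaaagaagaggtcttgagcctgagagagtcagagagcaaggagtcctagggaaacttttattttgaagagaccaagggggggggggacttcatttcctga
A match describes these letters only, since binding of RBP2 was not measured in these samples, and the remaining windows with a match belong to Egfr, Igf1r and the other Fgfr3 start.

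Median deposited signal per array lay between 21.5 and 43.7, and the arrays were brought to a common level by quantile normalization. Signals below are on that normalized linear scale unless called deposited, log2 values are log2(signal + 9), and every fold change is RBP2-null minus wild type on that log2 scale. Adding 9 understates the change of dim probe sets. Wild-type replicate 1 stood apart, with correlations across probe sets of 0.927 to 0.928 with the other arrays, whose highest correlations were 0.951 to 0.965, so the fold changes of named probe sets and genes are also given without that array. Added control RNA, whose amount does not depend on the cells, was also dimmest on that array, with a deposited BioB signal of 103 against 188 to 267 on the others. The fibroblast markers fixed for this work had a summed signal of 44465 and 47922 in RBP2-null cells and 42739 and 47545 in wild type, with vimentin (Vim) as the brightest of the 10 measured. Epithelial genes summed to 588 and 779 in RBP2-null cells and 944 and 695 in wild type, with Epcam the brightest and Esrp1, at 0.95 and 3.4 in RBP2-null cells and 19.1 and 2.02 in wild type, the dimmest. Endothelial genes summed to 166 and 99.3 in RBP2-null cells and 130 and 102 in wild type. Macrophage genes summed to 129 and 129 in RBP2-null cells and 238 and 148 in wild type. Of the genes measured, 7 of 9 epithelial, 4 of 6 endothelial, 3 of 6 macrophage and 5 of 6 chondrocyte markers passed the filter on dim signal. That filter kept the upper 60% of all probe sets, and each gene was read on its brightest. Passing therefore does not show that a cell type was present. Kdm5a, the targeted gene, had 75.5 and 80.7 in the RBP2-null lines against 96.5 and 191 in the wild-type lines on its brightest probe set. Its fold change of -0.74 ± 0.34 (SE), or -1.23 when wild-type replicate 1 was left out, did not pass the threshold. Kdm5a had 14 and 28.1 in RBP2-null cells against 48.2 and 74.7 in wild-type cells on 1452360_a_at, with a fold change of -1.24 ± 0.41 (SE), a limma unadjusted p of 0.0146 and an adjusted p of 1.00, or -1.59 without wild-type replicate 1. Its dimmer probe sets 1444842_at, 1441318_at and 1437106_at had -0.25, 0.24 and 0.15, or -0.41, -0.06 and 0.32 without that array, and 1445541_at was too dim to be tested. The Kdm5a probe sets thus did not share a direction, and one outside the deleted part would not check the labels.

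None of the 29 receptor probe sets passed an adjusted p of 0.05 in limma between RBP2-null and wild-type cells, where 1 of 27022, or 0.0037% of all kept probe sets, did. That count over all probe sets was 41 when wild-type replicate 2 was left out, 2 when replicate 1 of that genotype was, and 0 with RBP2-null replicate 2 left out. The adjusted p was 1.00 for every receptor probe set with all 4 arrays. Without wild-type replicate 1 again none of the 29 passed, against 0.0074% of all. At an unadjusted p under 0.05 there were 2 receptor probe sets, 1 of Met and 1 of Ddr2, against 2.98% of all. RBP2-null and wild-type arrays did not overlap for 7 of the 29, 4 of them with RBP2-null cells on the upper side and 3 on the lower, where 29.5% of all kept probe sets did not overlap. The estimates lay above 0 for 15 and below 0 for 14, with a median log2 fold change of 0.023 against 0.0031 over all kept probe sets. Their standard errors were between 0.22 and 0.88, and intervals of this width do not show that the genotypes were alike. The smallest p that an exact two-sided permutation test allows with this design is 0.333, which is why the spread was pooled over probe sets. The p-values here rest in part on that pooled spread and cover these lines only. With 1 array for each line, differences between lines and between arrays cannot be told apart.

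**Figure D1:**
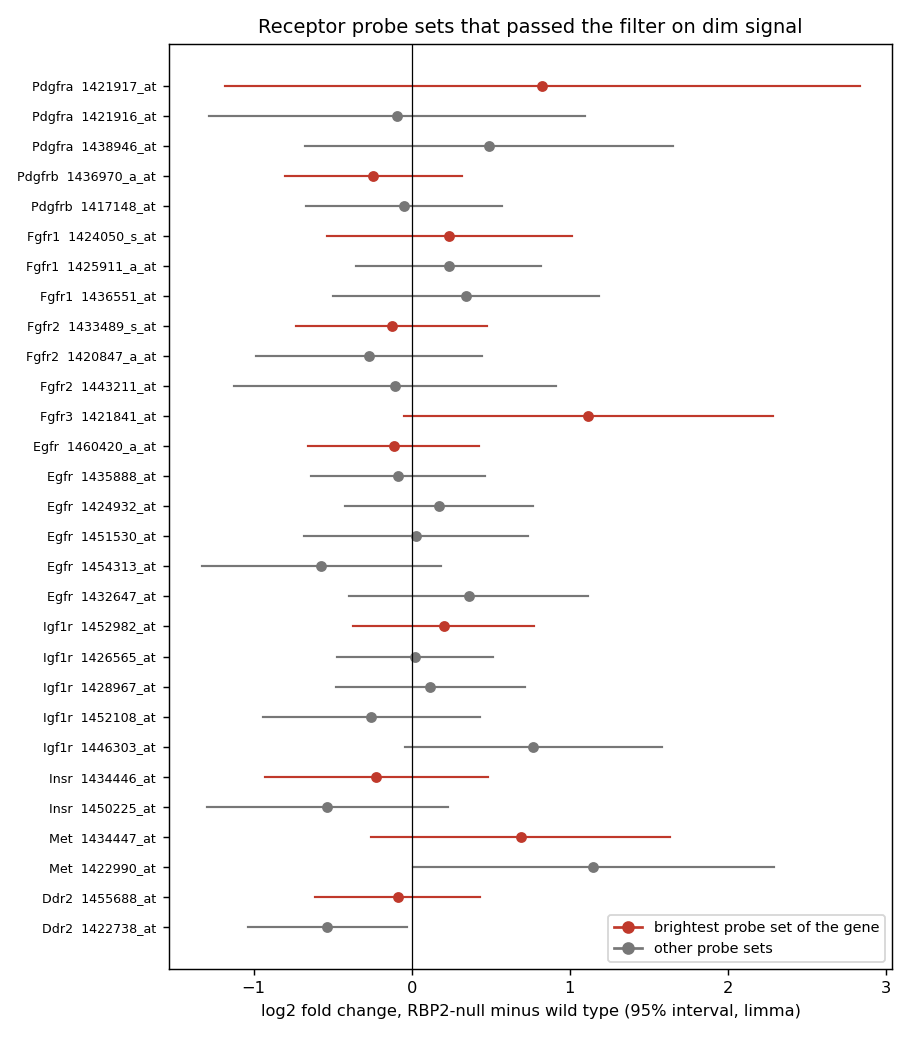
Log2 fold change, RBP2-null minus wild type, of the 29 receptor probe sets that passed the filter, with 95% intervals from limma; red marks the brightest probe set of each gene and grey the others. The intervals of 1 Met and 1 Ddr2 probe set leave out 0 before adjustment over all probe sets, and no probe set passed the threshold after it.

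Pdgfra, the receptor of PDGF-AA and a widely used surface marker of mesenchymal progenitors, varied more between arrays than any other member on its brightest probe set, with the line numbered 2 above the line numbered 1 in both genotypes. This probe set, 1421917_at, had a signal of 168 and 448 in RBP2-null replicates 1 and 2, against 43.7 and 479 in wild-type replicates 1 and 2. As deposited the values were 129.6 and 696.5 in RBP2-null lines and 31.9 and 491.5 in wild-type lines. Line 2 exceeded line 1 by 1.37 on the log2 scale in RBP2-null cells and by 3.21 in wild type, and the genotypes overlapped.

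The other Pdgfra probe sets had the same order within each genotype. Probe set 1421916_at had 50 and 131.5 in RBP2-null lines and 52.2 and 146 in wild-type lines. The dimmest, 1438946_at, had 29.6 and 91.8 in RBP2-null lines and 24.2 and 50.6 in wild-type lines. The difference between the lines on the 3 Pdgfra probe sets was between 0.84 and 3.21 log2 units, and its size in wild type differed from probe set to probe set. Of these, 1421917_at and 1421916_at are annotated to a shared target record, so they are not independent readings.

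The Pdgfra fold change was 0.83 ± 0.88 (SE), with a 95% interval of -1.18 to 2.83. Its direction rested on wild-type replicate 1, without which it turned to -0.79, whereas leaving out wild-type replicate 2 gave 2.42 and a limma adjusted p of 0.0556. On 1421916_at it was -0.09, or -0.79 without wild-type replicate 1, and on 1438946_at it was 0.49, or 0.07 without that array. Fewer Pdgfra-expressing cells in a culture and less Pdgfra RNA per cell cannot be told apart in these bulk samples, here or for the receptors below. The summed signal of epithelial, macrophage, chondrocyte and smooth muscle markers was highest in wild-type replicate 1, where the brightest Pdgfra probe set was lowest. The endothelial and neural sums were not highest there. The chondrocyte genes had 244 and 353 in RBP2-null cells against 462 and 322 in wild type. The smooth muscle sum was 17241 in wild-type replicate 1 and 16953 in RBP2-null replicate 1. Genes within the epithelial and chondrocyte sums disagreed. Epcam and Col2a1 were highest in wild-type replicate 1, while Krt18, Cldn4, Sox9 and Col11a2 were lowest. Of the macrophage genes, Tyrobp, Fcer1g, Adgre1 and Ptprc were highest in that array, and Cd68 and Itgam were neither highest nor lowest. The part of these markers in the receptor values was not tested.

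Pdgfrb, the receptor of PDGF-BB that is typical of fibroblasts and pericytes, differed far less between lines. Its brightest probe set, 1436970_a_at, had 432 and 560.2 in RBP2-null cells and 491 and 693 in wild-type cells, which overlapped. Its other probe set, 1417148_at, had 179 and 129.8 in RBP2-null cells and 143 and 174 in wild-type cells. The line numbered 2 was the higher in RBP2-null cells on the first and the lower on the second, so the Pdgfrb probe sets did not share an order. The fold changes were -0.24 ± 0.25 and -0.05 ± 0.27 (SE), or -0.49 and -0.19 without wild-type replicate 1, and the first was 0.0027 without wild-type replicate 2.

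**Figure D2:**
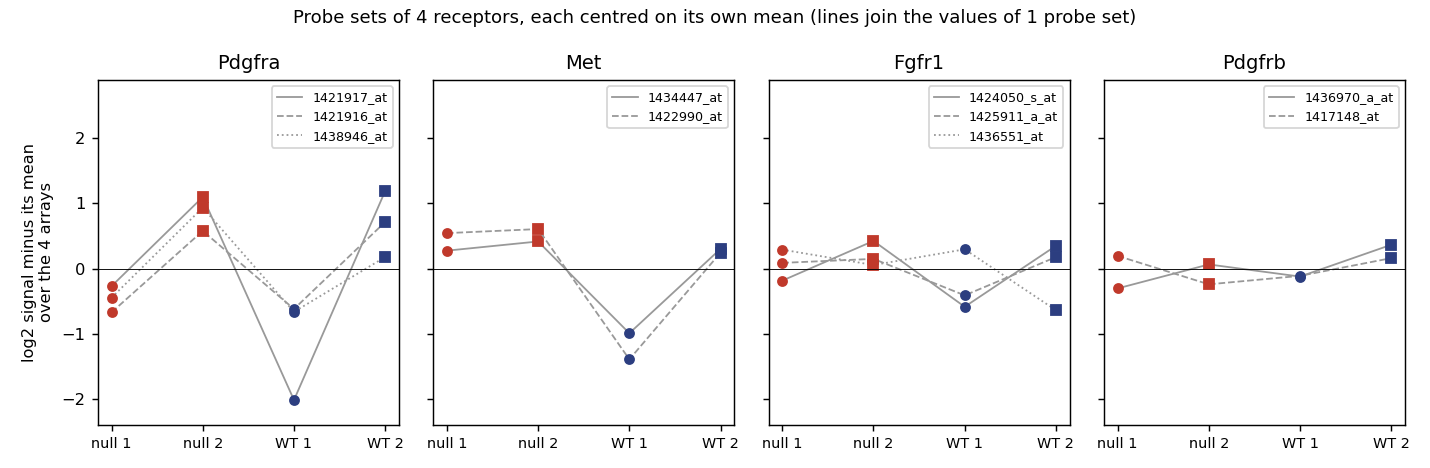
Log2 signal of each kept probe set of Pdgfra, Met, Fgfr1 and Pdgfrb minus its own mean over the 4 arrays, with RBP2-null arrays left of wild-type arrays; lines join the values of 1 probe set and have no order in time. All 3 Pdgfra probe sets lie higher in the line numbered 2 in both genotypes, both Met probe sets are lowest in wild-type replicate 1, and the Fgfr1 and Pdgfrb probe sets differ among themselves.

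Fgfr1, the main FGF receptor of mesenchyme, had 369 and 568 in RBP2-null cells and 277 and 539 in wild-type cells on its brightest probe set, 1424050_s_at. A second bright probe set, 1425911_a_at, had 337 and 352 in RBP2-null cells against 236 and 359 in wild-type cells. Wild-type replicate 1 was the lowest array on both, and the genotypes overlapped. The dimmer 1436551_at went another way, with 85.5 and 71.2 in RBP2-null cells and 85.8 and 40.6 in wild-type cells, and its lowest array was wild-type replicate 2. The Fgfr1 fold changes were 0.24 ± 0.34, 0.24 ± 0.26 and 0.34 ± 0.37 (SE). Without wild-type replicate 1 they were -0.23, -0.06 and 0.85, and the brightest had -0.07 without RBP2-null replicate 2, so no direction held over the lines.

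Fgfr2, whose splice forms divide between epithelium and mesenchyme, was highest in wild-type replicate 1 on its brighter probe sets. Probe set 1433489_s_at had 174 and 201 in RBP2-null cells against 247 and 171 in wild-type cells. Probe set 1420847_a_at had 95.8 and 110.3 in RBP2-null cells against 165 and 95.7 in wild-type cells. The dim 1443211_at had its lowest value, 17.0, in that same array. The Fgfr2 fold changes lay between -0.27 and -0.11, with standard errors of 0.27 to 0.45, and without wild-type replicate 1 the brighter probe sets had 0.13 and 0.10 while 1443211_at, at -0.11 with all arrays, had -0.52. The epithelial marker sum was highest in wild-type replicate 1, where Epcam gave 599 of 944. The Epcam probe set, 1447899_x_at, has an ID that marks possible binding of several transcripts. Krt5, Krt14 and Esrp1 were also highest in that array, while Krt18 and Cldn4 were lowest, at 36.7 and 22.3. Krt8, Krt19 and Cdh1 were neither. The part of these markers in the Fgfr2 values was not tested.

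Fgfr3, known for restraining growth plate chondrocytes, had the fold change farthest above 0 among the brightest probe sets. Its signal on 1421841_at was 44.9 and 64.2 in RBP2-null cells against 8.5 and 38.8 in wild-type cells. Both RBP2-null lines were above both wild-type lines, but the value of wild-type replicate 1 lies below the pseudocount of 9. The fold change was 1.12 ± 0.51 (SE), with a 95% interval of -0.05 to 2.29, and leaving out wild-type replicate 1 gave 0.41 ± 0.40 (SE). Leaving out wild-type replicate 2 gave 1.85, with a limma adjusted p of 0.118. With a pseudocount of 1 it was 1.49 and with 32 it was 0.68. A further Fgfr3 probe set, 1425796_a_at, was too dim to be tested, with 20.1 and 2.17 in RBP2-null cells and 12.6 and 3.73 in wild-type cells. Chondrocyte markers had their highest sum in wild-type replicate 1, where Fgfr3 was lowest on 1421841_at, but the genes in that sum disagreed. Col2a1 and Col9a1 were highest in that array, at 255 and 105. Sox9 and Col11a2 were lowest there, at 27.7 and 24.1, and Acan and Matn1 were neither. The part of these markers in the Fgfr3 values was not tested.

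Met, the receptor of hepatocyte growth factor, which drives scattering and migration, was dimmest in wild-type replicate 1 on both of its probe sets and close to level across the other arrays. The brightest, 1434447_at, had 111 and 123 in RBP2-null cells against 40.6 and 113 in wild-type cells. The other, 1422990_at, had 84.0 and 88.1 in RBP2-null cells against 15.2 and 66.5 in wild-type cells, with no overlap between the genotypes. The Met fold changes were 0.69 ± 0.41 and 1.15 ± 0.50 (SE), the second with a limma unadjusted p of 0.0487. Without wild-type replicate 1 they were 0.04 ± 0.33 and 0.35 ± 0.34 (SE), and without wild-type replicate 2 the brightest had 1.33, with a limma adjusted p of 0.123.

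**Figure D3:**
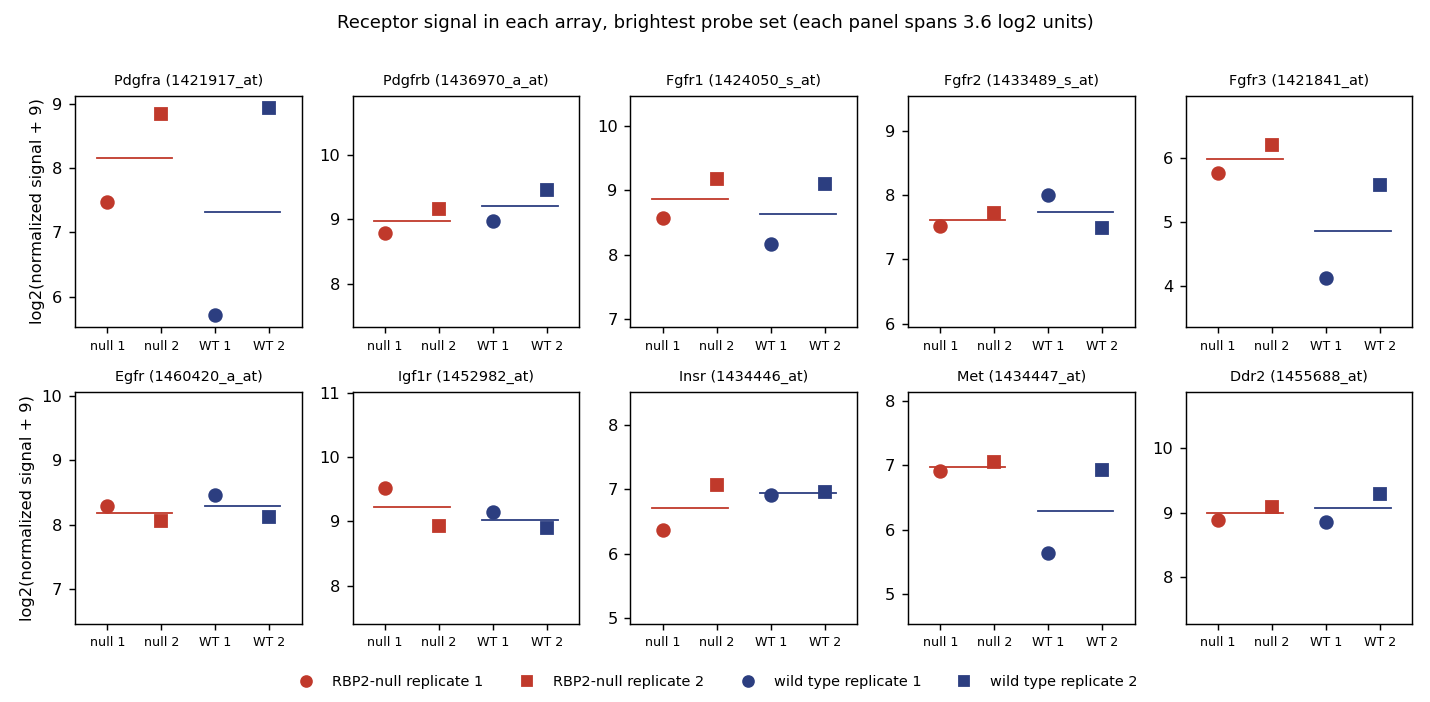
Log2(normalized signal + 9) of the brightest probe set of each receptor in each array; red points are RBP2-null lines and blue points wild-type lines, circles mark replicate 1, squares replicate 2 and horizontal lines the group means (n = 2). All panels span the same log2 range, and Pdgfra covers 3.21 units of it, Fgfr3 2.06 and Met 1.41, while Egfr covers 0.40.

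Egfr, the receptor of EGF, TGF-alpha and amphiregulin, was read by 7 probe sets and was among the steadiest receptors across the lines. On the brightest, 1460420_a_at, it had 303 and 259 in RBP2-null cells and 344 and 269 in wild-type cells. On 1435888_at it had 236 and 206 in RBP2-null cells and 262 and 209 in wild-type cells. These signals overlapped between genotypes, and in each genotype the line numbered 1 was the higher.

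That order of the lines was shared by 5 of the 6 kept Egfr probe sets in both genotypes. It was opposite to the order of Pdgfra. On 1424932_at Egfr had 201 and 146 in RBP2-null cells and 154 and 148 in wild-type cells, and on 1451530_at it had 202 and 115 in RBP2-null cells and 165 and 136 in wild-type cells. Both of these are annotated to 1 target record. Fold changes of the 4 brightest were -0.11, -0.08, 0.17 and 0.03, with standard errors of 0.24 to 0.31. Without wild-type replicate 1 they were 0.06, 0.07, 0.21 and 0.16.

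The dimmer Egfr probe sets disagreed although they share a target record. Probe set 1454313_at had 50.8 and 36.1 in RBP2-null cells, below the 79.2 and 58.5 of wild-type cells. Probe set 1432647_at had 60.2 and 54.3 in RBP2-null cells, above the 35.3 and 51.0 of wild-type cells. Their fold changes were -0.57 ± 0.33 and 0.36 ± 0.33 (SE), or -0.40 and 0.15 without wild-type replicate 1. The remaining Egfr probe set, 1457563_at, was too dim to be tested, with 9.85 and 6.92 in RBP2-null cells and 27.1 and 0.575 in wild-type cells.

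Igf1r, the receptor through which IGF1 and IGF2 support fibroblast growth and survival, held the steadiest probe set of all the receptors. Probe set 1426565_at had 303 and 294 in RBP2-null cells and 305 and 282 in wild-type cells, a range of 0.11 log2 units over the 4 arrays. The brightest, 1452982_at, had 726 and 479 in RBP2-null cells and 559 and 468 in wild-type cells. Here the line numbered 1 was the higher in both genotypes, as on 4 of the 5 Igf1r probe sets.

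The Igf1r fold changes were 0.20 ± 0.25 and 0.02 ± 0.22 (SE) on 1452982_at and 1426565_at, or 0.33 and 0.08 without wild-type replicate 1. They were 0.12 on 1428967_at and -0.25 on 1452108_at, or 0.19 and -0.14 without that array. The brightest had -0.10 without RBP2-null replicate 1. Only the dim 1446303_at separated the genotypes, with 53.2 and 57.7 in RBP2-null cells against 22.6 and 36.1 in wild-type cells. Its fold change was 0.77 ± 0.36 (SE), and 0.54 when wild-type replicate 1 was left out. It is also the Igf1r probe set whose order of lines differs from the rest.

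Insr, the insulin receptor and the closest relative of Igf1r, had 73.5 and 125 in RBP2-null cells and 111 and 116 in wild-type cells on its brightest probe set, 1434446_at. On 1450225_at it had 36.9 and 49.0 in RBP2-null cells, both below the 78.7 and 54.7 of wild-type cells. The lowest of the 4 arrays was RBP2-null replicate 1 on both. The Insr fold changes were -0.22 ± 0.31 and -0.53 ± 0.33 (SE), and -0.26 and -0.32 without wild-type replicate 1, while the first was 0.13 without RBP2-null replicate 1. The remaining Insr probe set, 1421380_at, was too dim to be tested, with 21.4 and 17.4 in RBP2-null cells and 22.7 and 10.2 in wild-type cells.

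Ddr2, the collagen receptor of mesenchymal cells, had probe sets that differed in how far they separated the genotypes. On the brightest, 1455688_at, it had 464 and 534 in RBP2-null cells and 454 and 618 in wild-type cells, which overlapped. On 1422738_at it had 309 and 388 in RBP2-null cells, below the 484 and 527 of wild-type cells. As deposited, the same probe set had 246.6 and 605.9 in RBP2-null cells and 288.5 and 539.1 in wild-type cells, so the separation appears only once the arrays are brought to a common level.

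The Ddr2 fold changes were -0.09 ± 0.23 and -0.53 ± 0.22 (SE), the second with a limma unadjusted p of 0.0395 and an adjusted p of 1.00. Unlike Met and Fgfr3, this Ddr2 probe set kept its size without wild-type replicate 1, at -0.60 ± 0.31 (SE). The brightest Ddr2 probe set had -0.31 without that array, 0.13 without wild-type replicate 2 and 0.0090 without RBP2-null replicate 1.

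**Figure D4:**
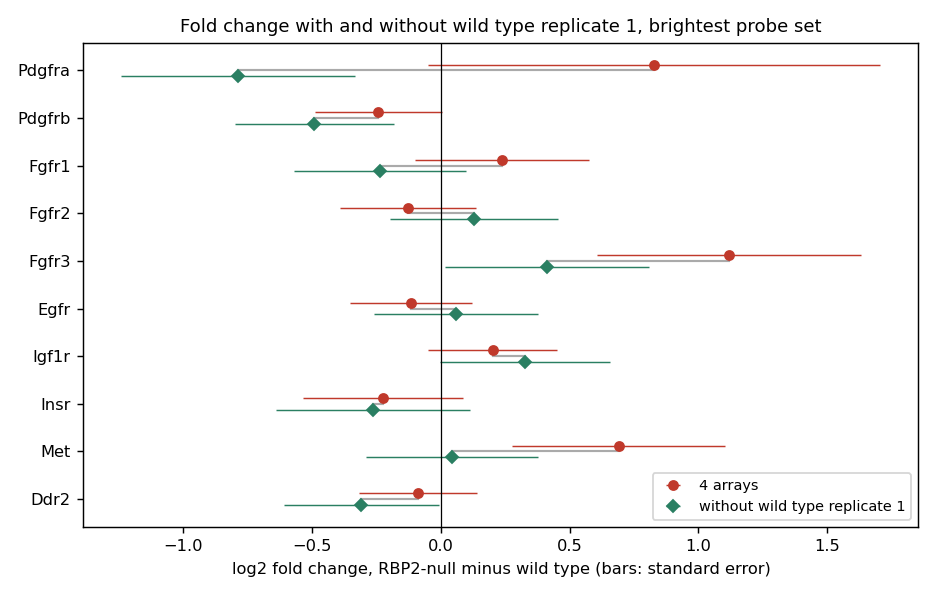
Log2 fold change, RBP2-null minus wild type, of the brightest probe set of each receptor with all 4 arrays (red circles) and without wild-type replicate 1 (green diamonds); bars are standard errors from limma. Pdgfra has 0.83 with all arrays and -0.79 without that one, Fgfr3 has 1.12 and 0.41, and Met has 0.69 and 0.04.

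Across the receptors, wild-type replicate 1 held the lowest of the 4 values on 11 of the 29 kept probe sets and the highest on 9, where it held the lowest on 31.3% and the highest on 31.4% of all kept probe sets. The line numbered 2 was above the line numbered 1 in both genotypes on 14 of the 29 and below it in both on 10, against 27.4% and 28.1% of all kept probe sets. All kept probe sets of Pdgfra, Fgfr3, Met and Ddr2 belonged to the first kind, and most Egfr and Igf1r probe sets to the second. Probe sets of 1 gene are repeated readings of the same RNA and not replicates of a line. The labels state no meaning for the numbers beyond separate lines.

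Likeness between profiles was measured as the mean absolute difference in centred log2 signal over the 4 arrays, on the brightest kept probe set of each gene. Among the receptors, Pdgfrb and Ddr2 were closest at 0.081, followed by Fgfr2 and Egfr at 0.15 and Igf1r and Egfr at 0.17, while Met and Fgfr3 were 0.21 apart. Pdgfra lay at least 0.67 from every other receptor, with Fgfr3 the nearest. Among 13096 other genes, those nearest to Pdgfra were Gsta4, a glutathione transferase, at 0.19 and Prune2 at 0.26, and only 1 gene lay within 0.2. Nearest to Fgfr3 were 4930432J09Rik at 0.053 and Inpp5e, a phosphoinositide phosphatase, at 0.074, with 65 genes within 0.2. Nearest to Met were Ttc27 at 0.020 and Wdr31 at 0.022, with 371 genes within 0.2. With 4 arrays many genes share a profile, so these are descriptions of the arrays.

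Genes that feed, carry or restrain receptor signals were read on the brightest probe set of each gene, and none passed the threshold in either direction. Of 22 kept ligands, 11 estimates lay above 0 and 11 below, with a median log2 fold change of -0.01. Ereg, an EGF receptor ligand, had 402 and 459 in RBP2-null cells against 289 and 315 in wild-type cells. Its fold change was 0.50 ± 0.21 (SE), and 0.44 when wild-type replicate 1 was left out. Fgf9, which signals through FGF receptors including Fgfr3, had 47.4 and 29.4 in RBP2-null cells against 107 and 55.9 in wild-type cells, with a fold change of -0.90, or -0.50 without wild-type replicate 1. Insulin (Ins2) was dim, with a fold change of -0.73, or -0.99 without that array. Its mean log2 signal was 5.30 in wild type and 4.58 in RBP2-null cells, below the 4.74 of Matn1 over all arrays. Matn1 did not pass the filter, so Ins2 passed only through its wild-type signal and its fold change cannot be read as a difference. The ID of its probe set, 1422446_x_at, also marks possible binding of several transcripts. Coreceptors had 4 of 8 kept estimates above 0 and a median of 0.02, and Nrp1, Itgb1 and Fgfrl1 had 0.15, -0.11 and -0.12, which were -0.06, 0.09 and 0.08 without wild-type replicate 1.

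Adaptors and signal transducers had 11 of 23 estimates above 0 and a median of -0.05. Sos2, an exchange factor that loads Ras with GTP, had 179 and 143.5 in RBP2-null cells against 90.5 and 81.8 in wild-type cells. Its fold change of 0.83 ± 0.26 (SE) was 0.92 without wild-type replicate 1. Frs3, a docking protein of FGF receptors, had 40.9 and 9 in RBP2-null cells against 60.6 and 66.3 in wild-type cells. Its fold change was -1.27 ± 0.49 (SE), or -1.39 without wild-type replicate 1. The signal of RBP2-null replicate 2 equals the pseudocount of 9. Line 2 minus line 1 was -1.47 in RBP2-null cells, so the Frs3 estimate leans on that 1 dim value. Pik3r2, a regulatory subunit of PI3K, had 0.40, or 0.71 without wild-type replicate 1. Negative regulators of receptor signalling had 11 of 14 estimates above 0 and a median of 0.07, where 13625 of all 27022 kept probe sets lay above 0. Without wild-type replicate 1, Ptpn2, Lrig1, Socs3 and Spred2 turned to below 0, and Cbl and Cblb to above 0. Ptprj, a receptor phosphatase, had -0.53, the adaptor Grb14 0.33 and the Ras GTPase activator Rasa1 0.20. Without wild-type replicate 1 these were -0.50, 0.25 and 0.21.

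Other receptor tyrosine kinases had 15 of 28 kept estimates above 0 and a median of 0.06. Ddr1, the collagen receptor related to Ddr2, had 317 and 341 in RBP2-null cells against 147 and 253 in wild-type cells. Its fold change was 0.74 ± 0.29 (SE), and 0.37 when wild-type replicate 1 was left out. Flt3, a receptor of blood progenitors, and Fgfr4 had 0.82 and -0.87, which were 0.71 and -0.32 without that array. The median over all kept probe sets was 0.0031, and the limma adjusted p was 1.00 for each of these genes. The probe sets of Ddr1 and Fgfr4, 1456226_x_at and 1427846_x_at, have IDs that mark possible binding of several transcripts.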

How the data were processed

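RNA from 4 lines of mouse embryonic fibroblasts was biotin-labelled and hybridised to 1-colour Affymetrix arrays, per the labels. Each deposited value is a signal intensity on a linear scale for 1 probe set on 1 array. How the authors summarised probes or corrected background was not given in the sources used here. Trimmed means of the deposited arrays differed by 2.46 times, so the linear values were quantile normalized without the 64 control probe sets. A pseudocount of 9, the rounded 25th percentile of the deposited intensity values, was added before log2, and the upper 60% of 45037 probe sets by mean log2 signal were kept. The difference between RBP2-null and wild type was tested with lmFit and eBayes of limma 3.58.1 (R 4.3.3) and a mean-dependent prior variance, two-sided, with Benjamini-Hochberg adjustment over all 27022 kept probe sets and a threshold of 0.05. Intervals are 95%, and precision is limited by having 4 arrays. No pair of arrays was identical. The steps were run on simulated data with independent noise and no array that stood apart. That run checked only the sign and rough size of mean fold changes.

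Symbols came from a platform annotation table, which names 1 gene for 34945 probe sets, several for 932 and none for 9160. Named are all receptors on all probe sets, Kdm5a, up to 3 genes of each pathway list with the smallest p, and for markers the extremes by signal. Lists used each gene's probe set of highest mean log2 signal, called the brightest. The receptors and lists were chosen with earlier results of these data known. Neural and smooth muscle markers were also summed. Their normalized signals were 167 and 217 in RBP2-null cells against 186 and 217 in wild type for neural genes, and 16953 and 13423 in RBP2-null cells against 17241 and 13670 in wild type for smooth muscle genes. Promoter windows were from RefSeq. Alternatives covered the pseudocount, filter, scaling, variance model, probe set choice, threshold, replicate number as a block and each array left out.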

Additional observations from a re-analysis of the deposited data

How the results depend on the processing

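No receptor probe set passed the threshold under any of the alternatives run, and the lowest limma adjusted p among them was 0.0521, without wild-type replicate 2. Met and Fgfr3 kept their sign under the other pseudocounts and scalings and with each array left out. Fgfr3 was not tested with the upper 40% of probe sets. With median-centred arrays, which shift the median of all kept probe sets by 0.18, Pdgfrb, Fgfr2, Egfr and Ddr2 had 0.066, 0.13, 0.17 and 0.22. Relative to the shift of all probe sets, which is 0.38 without scaling, these were -0.12, -0.056, -0.011 and 0.035, so only Ddr2 changed sign against the other probe sets. With each array left out in turn, the ranges were -0.79 to 2.42 for Pdgfra, -0.49 to 0.0027 for Pdgfrb, -0.23 to 0.71 for Fgfr1, -0.39 to 0.13 for Fgfr2, -0.29 to 0.060 for Egfr, -0.10 to 0.50 for Igf1r, -0.55 to 0.13 for Insr, 0.043 to 1.33 for Met, 0.41 to 1.85 for Fgfr3 and -0.31 to 0.13 for Ddr2. The count over all probe sets, 1 with all 4 arrays, was 0 when no filter, no scaling or no mean-dependent variance was used, and 2 with median-centred arrays, and it was between 0 and 41 with an array left out; the cause was not tested. At an unadjusted p under 0.05 these counts of 0 stood beside 1653, 189 and 945 probe sets, and the 0 without RBP2-null replicate 2 beside 815, and receptor probe sets numbered 0 to 5 there over the alternatives.

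With the replicate number as a block 49 probe sets passed, 26 of them higher in RBP2-null cells, and none of a receptor; Pdgfra then had 0.83 with a standard error of 0.26 and a limma adjusted p of 0.286. The differences between line 2 and line 1 correlated at 0.11 between genotypes over the kept probe sets. The labels give the numbers no meaning and there are only 2 pairs, so the lines were not taken as paired. Probe sets near the pseudocount of 9, such as those of Fgfr3, limit what fold changes can show.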
